A study of Mus musculus with 24 samples.

Results

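Collagens, laminins, integrins and the Adamts proteases build, bind and cut the extracellular matrix. Genes of these 4 families that mouse embryonic stem cells (mESCs) transcribe were followed across deletions of 6 subunits of ISWI chromatin remodellers. Members were chosen by gene symbol and a count minimum, a rule that itself uses no change of level but was set with earlier results of these data known. It took numbered collagen chains, laminin chains, integrin α and β subunits, and numbered Adamts and Adamtsl genes. Of 105 genes with such a symbol, the 5 chains Col4a1, Col4a2, Lama1, Lamb1 and Lamc1 were left out by name, and 20 of the other 100 did not have at least 10 counts in at least 2 libraries. The remaining 80 genes, of 24594 in the table, were 35 collagens, 6 laminins, 22 integrins, 14 Adamts proteases and 3 Adamtsl genes. All 80 also reached the count minimum in the WT libraries alone and passed the filter of the test, among 15682 genes tested. At the minimum itself, Col25a1 and Itgb6 had at least 10 counts in exactly 2 libraries, and Col10a1, in 1 library, stayed out.

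The study deleted single non-catalytic ISWI subunits to compare what each subcomplex does in mESCs. RNA was sequenced from 24 libraries of mESCs of 129S6/SvEvTac background, grown in serum with leukemia inhibitory factor on gelatin. There were 11 libraries of WT cells and 13 of deletion lines made with CRISPR–Cas9. The lines were Rsf1Δ (RSF complex) and WstfΔ (WICH; the gene is Baz1b) in batch A, Tip5Δ (NoRC; Baz2a) in batch B, BptfΔ (NURF) in batch C, Cecr2Δ (CERF) in batch D and Acf1Δ (ACF and CHRAC; Baz1a) in batch E. Every group had 2 libraries, except WT and Cecr2Δ of batch D with 3 each, and batches are lettered in the labels. Each line was 1 selected clone, so the libraries of a line are repeats of that clone, and p-values measure the spread between such libraries, which may be technical. Rsf1Δ and WstfΔ were set against the same WT libraries.

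In matrix biology, collagen and laminin chains are secreted as trimers. Fibrillar collagens bundle into the fibres of connective tissue, and collagen IV and laminins form the sheets called basement membranes, which the extraembryonic endoderm of the early embryo makes in bulk. Integrins are pairs of one α and one β subunit that anchor cells to these proteins. Adamts enzymes are secreted proteases that trim procollagens and cut proteoglycans, while the related Adamtsl proteins lack the protease part.

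Levels are given as normalized CPM, the deposited counts scaled to library size with TMM factors. Library totals were between 13.4 M and 36.7 M counts, with a median of 25.0 M. At these totals 3 counts correspond to 0.0837 to 0.220 CPM, and values under that are not resolved. A gene was called when its absolute log2 fold change against the WT libraries of its batch was over 1 and its adjusted p in edgeR's quasi-likelihood test was under 0.01. Of the deleted genes, Rsf1 (log2 fold change -2.26), Baz1b (-2.40), Bptf (-1.97) and Baz1a (-1.72) were called lower in their own lines. Baz2a in Tip5Δ (-0.26, adjusted p = 0.0533) and Cecr2 (0.37, higher in 3 of 3 libraries) were not, so batch D libraries are named by label only, as labelled Cecr2Δ. Western blots of the paper detected none of the deleted proteins in their lines, Tip5Δ and Cecr2Δ included. RNA levels do not test whether the protein was lost. The 6 mESC markers Pou5f1, Sox2, Nanog, Klf4, Esrrb and Zfp42 summed to between 2527 and 4117 CPM in every library. All 4 libraries of batch C, WT and BptfΔ alike, also held 3288 to 4824 CPM of Rpph1, against at most 3.39 CPM elsewhere, and its part in the BptfΔ results was not tested.

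In WT cells the 80 genes spanned a wide range of levels. Per kilobase of the gene width in the table, Col18a1, the source of endostatin and a basement membrane collagen, had the highest mean level, 86.3 ± 9.87 CPM per kilobase over the 11 libraries (SD). Itgb1, the β subunit shared by most matrix-binding integrins, followed at 71.1 ± 11.2. Its laminin-binding partners Itga3 and Itga6 were at 35.2 ± 9.25 and 30.97 ± 2.07. Lama5, the α chain of laminins common in mature basement membranes, was at 28.5 ± 6.06 and Lamb2 at 7.598 ± 1.09. Among the proteases Adamts9 led with 6.95 ± 3.17, before Adamts14 at 2.83 ± 0.591 and Adamts1 at 2.39 ± 1.09. Neighbours in this order such as Itga3 and Itga6, or Adamts14 and Adamts1, differed by less than the larger of their SDs. Behind Col18a1 the collagens dropped steeply, to 2.48 ± 0.724 for Col9a2 and 2.23 ± 0.266 for Col9a3. The median member was at 0.483 CPM per kilobase, collagens at 0.204 and integrins at 1.04. On the CPM scale 21 of the 80 had a WT mean under 1 and 6 a mean over 100.

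**Figure D1:**
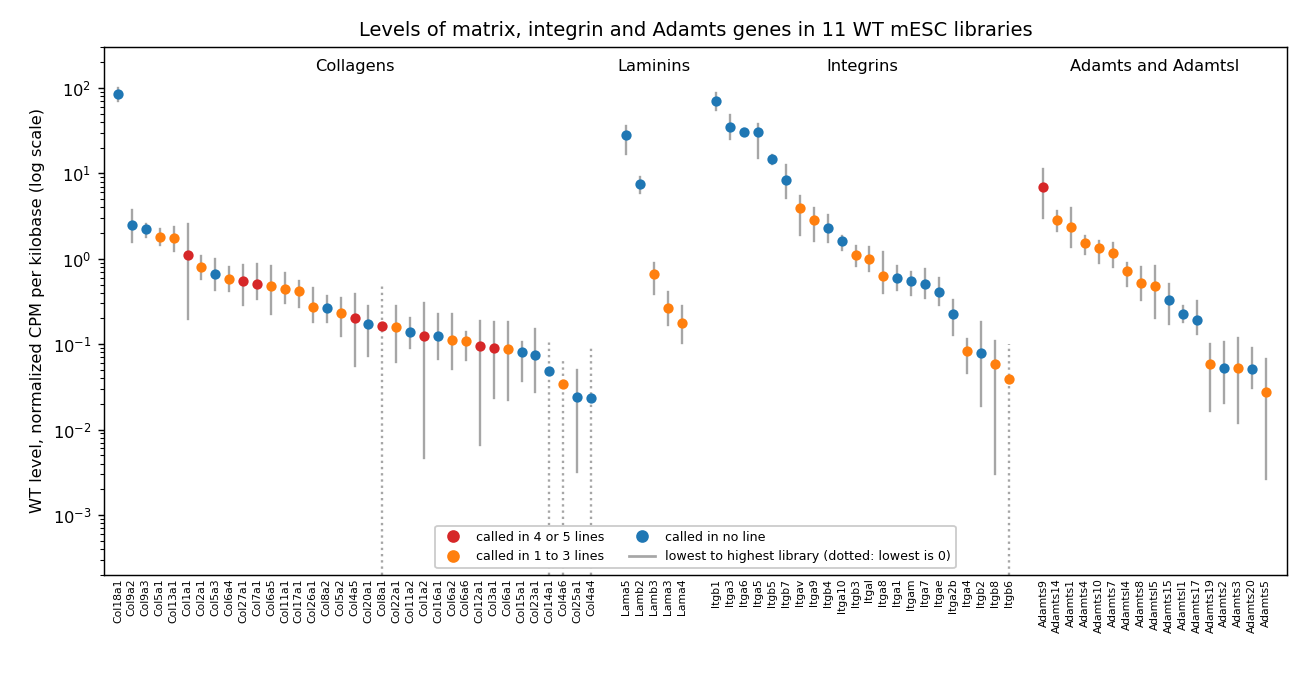
Mean level of the genes in the 11 WT libraries (points, 1 for each gene reported here), in normalized CPM per kilobase on a log axis, with lines from the lowest to the highest library, by family. Colours give the number of deletion lines in which the gene was called: Col18a1, Itgb1, Itga3 and Lama5 lie near the top and were called in none.

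The 80 genes were called lower more often than higher. In Rsf1Δ 23 were called lower and 0 higher, where 5.26% of all genes tested were called lower and 0.65% higher, 5.91% together. In WstfΔ 16 were lower and 4 higher (all genes, 6.57% and 3.87%, or 10.4% in either direction). In Tip5Δ 7 were lower and 0 higher (2.63% and 0.0829%, together 2.72%). BptfΔ had the most, with 22 lower and 9 higher (8.59% and 5.25%, together 13.8%). The libraries labelled Cecr2Δ had 4 lower and 0 higher (2.33% and 0.784%, together 3.11%), and Acf1Δ had 10 lower and 0 higher (3.32% and 1.14%, together 4.45%). As shares of the members, the lower calls were 28.8%, 20%, 8.75%, 27.5%, 5% and 12.5% in the same order. The median log2 fold change over the members was -0.49 in Rsf1Δ, -0.47 in WstfΔ, -0.19 in Tip5Δ, -0.47 in BptfΔ, -0.16 in libraries labelled Cecr2Δ and -0.33 in Acf1Δ. Over all genes tested it lay between -0.03 and 0.01.

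**Figure D2:**
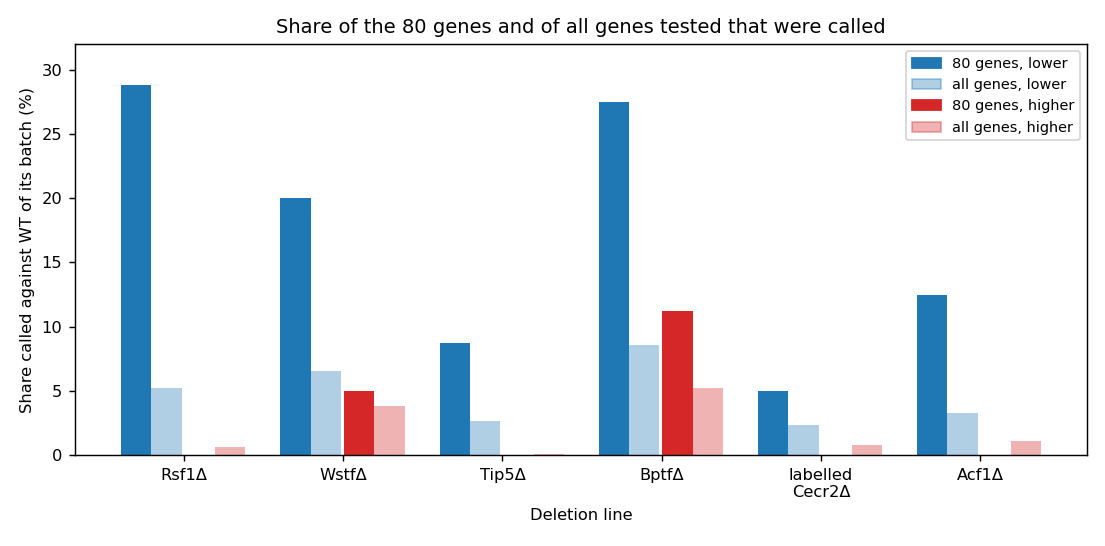
Share (%) of the 80 genes (full colour) and of all genes tested (pale) called lower (blue) or higher (red) in each deletion line against WT of its batch. The lower share of the 80 genes is 28.8% in Rsf1Δ against 5.26% of all genes, and 5% against 2.33% in the libraries labelled Cecr2Δ.

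Most of these genes are weakly transcribed, so the shares were also read within classes of WT level. Among genes with a WT mean under 1 CPM, 6 of 21 members were called in Rsf1Δ (28.6%) against 5.87% of the 2419 genes tested in that class, and 7 of 21 in BptfΔ (33.3%) against 14.3%. Between 1 and 10 CPM, 14 of 39 members were called in Rsf1Δ (35.9%, all lower) against 13.8% of 3798 genes, and 19 of 39 in BptfΔ (48.7%) against 29.4%. Over 10 CPM it was 3 of 20 in Rsf1Δ (15%) against 2.75% of 9465 genes, and 5 of 20 in BptfΔ (25%) against 7.47%. The other lines are given in the same order of classes. In WstfΔ the shares were 19.0%, 33.3% and 15% of members against 12.5%, 22.6% and 5.03% of genes, and in Tip5Δ 9.52%, 10.3% and 5% against 1.53%, 7.29% and 1.18%. The libraries labelled Cecr2Δ had 0%, 7.69% and 5% against 4.75%, 6.82% and 1.2%, and Acf1Δ 9.52%, 20.5% and 0% against 6.99%, 10.2% and 1.49%. With 20 to 39 members in a class, the shares in libraries labelled Cecr2Δ, those of Acf1Δ under 1 and over 10 CPM, those of Tip5Δ from 1 to 10 and over 10 CPM and that of WstfΔ under 1 CPM were within about 1 gene of the share of all genes.

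Over the 6 lines there were 95 calls in 46 genes, 82 lower and 13 higher. In all 95 the libraries of the line did not overlap those of WT in the same batch. The share of all genes tested without such overlap was not counted, so this alone does not set the members apart. Of the 46 genes, 34 were called lower only, 8 higher only and 4 in both directions, and 34 genes were called in no line. The share of all genes tested that were called in at least 1 line was not counted, so these numbers have no background beside them. WT levels themselves differed between batches: in 32 of the 82 lower calls, and in 0 of the 13 higher calls, the mean of the line lay inside the range of all 11 WT libraries. A fit without the batch term called 0 members in Rsf1Δ, 6 in WstfΔ, 3 in Tip5Δ, 25 in BptfΔ, 10 in libraries labelled Cecr2Δ and 1 in Acf1Δ. Every call is therefore a statement against the WT libraries of the same batch.

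**Figure D3:**
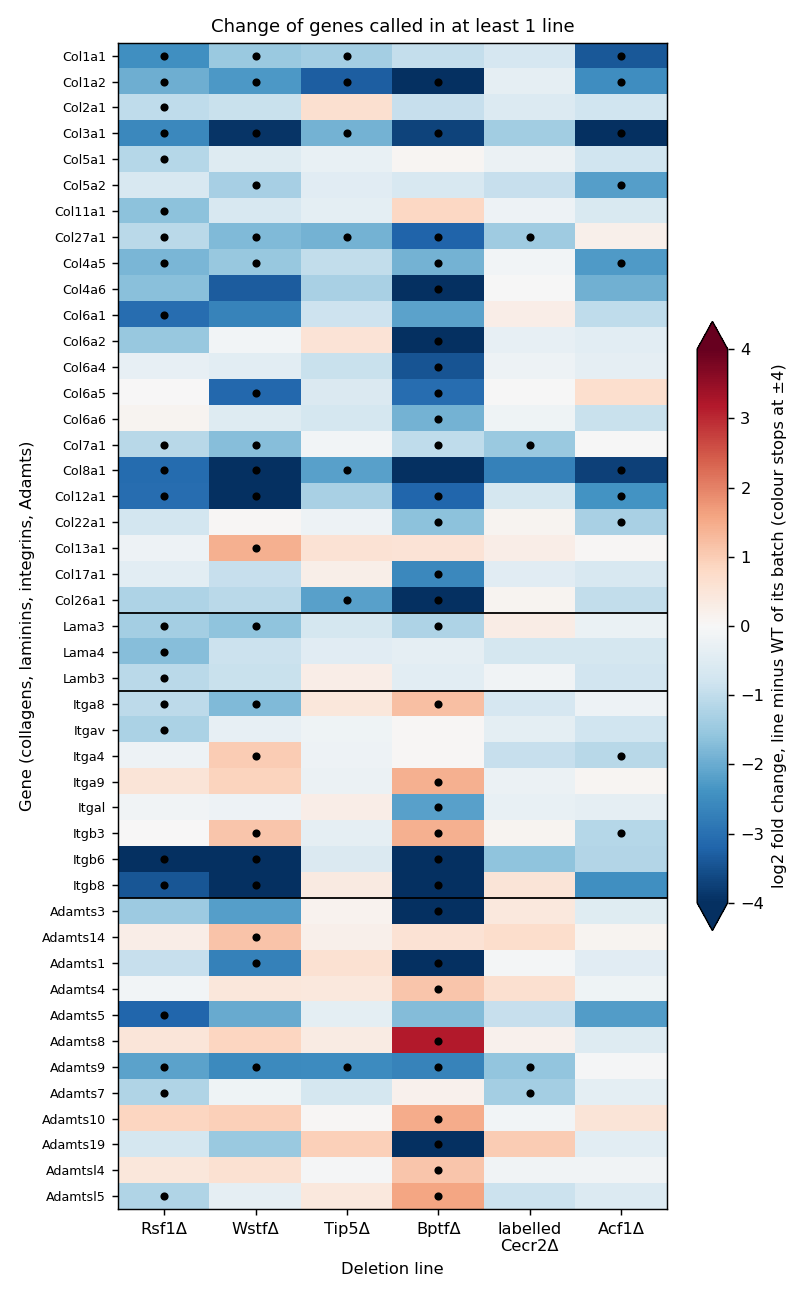
Log2 fold change of the genes called in at least 1 line and reported here (rows, by family) in the 6 lines (columns), line minus WT of its batch, with black dots on calls. Blue is lower and red higher, and colour stops at ±4. Dots run across 5 columns for Col1a2, Col3a1, Col27a1 and Adamts9, and red cells with a dot lie in the WstfΔ and BptfΔ columns.

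Collagens accounted for the bulk of the lower calls, with 12 of 35 in Rsf1Δ, 10 in WstfΔ, 6 in Tip5Δ, 14 in BptfΔ, 2 in libraries labelled Cecr2Δ and 8 in Acf1Δ. Over all genes tested the lower share was 5.26%, 6.57%, 2.63%, 8.59%, 2.33% and 3.32% in the same order, and the 2 of 35 in libraries labelled Cecr2Δ lay near it. The only collagen called higher was Col13a1, a membrane-spanning chain, in WstfΔ. Of the 10 fibrillar chains, 7 were lower in Rsf1Δ, 5 in WstfΔ, 4 in Tip5Δ, 3 in BptfΔ, 1 in libraries labelled Cecr2Δ, again near the share of all genes, and 4 in Acf1Δ. Since these are RNA levels of whole cultures, fewer cells that make collagen and less collagen RNA per cell cannot be told apart.

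Col1a1 (gene ID 12842, GRCm38 chromosome 11 from 94936224 to 94953042) encodes the α1 chain of collagen I, the main fibrillar collagen of bone and skin. In batch A its level was 7.78 and 8.23 CPM in WT, 1.37 and 1.55 in Rsf1Δ and 3.396 and 2.27 in WstfΔ. In batch B the WT libraries had 16.1 and 16.7 and Tip5Δ 4.903 and 7.99, and in batch E WT had 10.1 and 11.3 and Acf1Δ 0.9703 and 1.06. Every library of these 4 lines lay under its WT libraries, and Acf1Δ lay lowest relative to them. On the log2 scale Col1a1 fell by 2.45 ± 0.23 (SE, adjusted p = 2.68e-09) in Rsf1Δ. The fall was 1.49 in WstfΔ, 1.34 in Tip5Δ and 3.39 in Acf1Δ (adjusted p = 5.31e-06, 1.06e-06 and 1.11e-11). In batches C and D Col1a1 was low in WT already, at 1.99 and 1.28 and at 1.99, 1.98 and 2.61 CPM, and BptfΔ (1.14 and 0.578) and the libraries labelled Cecr2Δ (1.39, 1.43 and 1.28) were not called.

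Col1a2 (gene ID 12843, chromosome 6 from 4505618 to 4541543), encodes the α2 chain of the same trimer. WT libraries had 1.95 and 1.98 CPM in batch A, 3.68 and 3.07 in batch B, 0.525 and 0.875 in batch C and 2.14 and 1.59 in batch E. Rsf1Δ had 0.301 and 0.692, WstfΔ 0.289 and 0.512, Tip5Δ 0.438 and 0.2496 and Acf1Δ 0.485 and 0.176, all under their WT libraries. It fell by 3.28 ± 0.50 (SE, adjusted p = 2.71e-05) in Tip5Δ, and by 1.96 in Rsf1Δ, 2.28 in WstfΔ and 2.49 in Acf1Δ. BptfΔ had 0 counts against 25 in WT of batch C, which makes it at least 7.83-fold lower with 3 counts over the group as the floor. These counts are small, and leaving out 1 library could end the call. In WstfΔ it ended without any 1 of the 4 libraries compared (adjusted p = 0.0115 to 0.0513). In Rsf1Δ it ended without WT replicate 1 (0.0182) or 2 (0.0193) or Rsf1Δ replicate 1 (0.0702), in BptfΔ without WT replicate 2 (0.0127) or BptfΔ replicate 1 (0.0151) or 2 (0.0168), and in Acf1Δ without its replicate 2 (0.015). In Tip5Δ the call of Col1a2 was lost in none of these refits.

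Col3a1 (gene ID 12825, chromosome 1 from 45311538 to 45349706), the chain of collagen III that accompanies collagen I in soft tissue, was lower in the same 5 lines. WT of batch A had 1.08 and 1.25 CPM, Rsf1Δ 0.258 and 0.122 and WstfΔ 0.0722 and 0.0732. Tip5Δ had 0.306 and 0.582 against 1.76 and 1.57, BptfΔ 0 and 0.0578 against 0.315 and 0.584, and Acf1Δ 0 and 0.0706 against 1.62 and 0.704. All of these line libraries were under WT of their batch. Col3a1 fell by 2.59 ± 0.53 in Rsf1Δ (SE, adjusted p = 0.000366) and by 1.89 ± 0.42 in Tip5Δ (SE, adjusted p = 0.00201). Where a line had only 1 or 2 counts, the ratio of WT to the line was 15.95 (exact 95% interval 4.21 to 135) in WstfΔ, 15.04 (exact 95% interval 2.34 to 631) in BptfΔ and 32.1 (exact 95% interval 8.52 to 271) in Acf1Δ, with intervals for counting error alone. The call of Col3a1 was lost in Tip5Δ without WT replicate 1 (adjusted p = 0.021) or 2 (0.0103) or Tip5Δ replicate 1 (0.0666). It was lost in BptfΔ without WT replicate 2 (0.0478) or BptfΔ replicate 1 (0.0562) or 2 (0.013), and in Rsf1Δ without its replicate 2 (0.0173).

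Col27a1 (gene ID 373864, chromosome 4 from 63214009 to 63334991), a fibrillar collagen of cartilage, had another pattern. It was lower in Rsf1Δ at 4.51 and 4.76 and WstfΔ at 3.03 and 2.71, against 8.62 and 11.02 CPM in WT, and in Tip5Δ at 2.67 and 2.62 against 9.66 and 10.1. BptfΔ had 0.479 and 0.809 against 5.62 and 6.303, and the libraries labelled Cecr2Δ 1.42, 2.04 and 1.45 against 5.41, 3.77 and 4.07. Acf1Δ, with 8.85 and 7.76 against 6.67 and 7.63, was not called and lay at or over WT. In BptfΔ Col27a1 fell by 3.19 ± 0.29 (SE, adjusted p = 5.23e-10), and the difference between the log2 fold changes of BptfΔ and Acf1Δ was -3.41 ± 0.34 (SE, adjusted p = 3.73e-09). The fall was 1.77 in WstfΔ, 1.90 in Tip5Δ, and 1.43 was the fall in libraries labelled Cecr2Δ. In Rsf1Δ it was 1.08, and without WT replicate 2 it was 0.89, below the fold minimum. Gm52743 overlaps Col27a1, and how reads of overlapping genes were counted is not given in the sources used here.

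The stretch before the start site is shown for the 4 genes called lower in 5 lines, the most of any member. They differ in 1 line each, since Col1a2 and Col3a1 were called in Acf1Δ and not in the libraries labelled Cecr2Δ, and Col27a1 and Adamts9 the reverse. WT of batch D had only 0.0569, 0.26 and 0.628 CPM of Col1a2 and 0.228, 0.228 and 0.298 of Col3a1. These levels left little room for a lower call, so the missing calls in the libraries labelled Cecr2Δ show no separate pattern. Sequences are from the RefSeq promoter table of GRCm38.p6, on the strand of the gene, and are cut to the bases before the start that lie in no GENCODE vM21 exon. For Col27a1 and Adamts9 the start in that table lies inside the span given for the gene here, so their windows are within the gene and not before its outermost start. Capitals mark the letters of promoter motifs, each searched for on both strands. TATAAA holds the letters of the TATA box, a core promoter element found close to the start. GGGCGG holds those of the GC box, which Sp factors bind. Searched too were CCAAT, the element bound by NF-Y, and AGATAA, a core recognised by Gata factors. In Adamts9 the match is on the opposite strand. No match overlapped another here.
Col1a2, chr6:4505370-4505492, plus strand: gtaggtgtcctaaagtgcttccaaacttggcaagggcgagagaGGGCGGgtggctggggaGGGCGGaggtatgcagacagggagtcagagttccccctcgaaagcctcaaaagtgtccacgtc
Col3a1, chr1:45311288-45311537, plus strand: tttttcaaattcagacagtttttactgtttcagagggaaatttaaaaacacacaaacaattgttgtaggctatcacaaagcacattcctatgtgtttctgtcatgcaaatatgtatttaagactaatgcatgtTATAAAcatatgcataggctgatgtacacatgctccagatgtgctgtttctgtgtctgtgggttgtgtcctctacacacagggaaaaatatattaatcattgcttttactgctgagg
Col27a1, chr4:63215162-63215411, plus strand: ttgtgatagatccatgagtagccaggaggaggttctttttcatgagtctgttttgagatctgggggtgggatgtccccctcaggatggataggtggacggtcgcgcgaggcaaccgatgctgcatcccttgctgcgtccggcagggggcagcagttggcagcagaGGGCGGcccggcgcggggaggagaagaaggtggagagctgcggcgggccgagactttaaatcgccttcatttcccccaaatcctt
Adamts9, chr6:92943535-92943784, minus strand: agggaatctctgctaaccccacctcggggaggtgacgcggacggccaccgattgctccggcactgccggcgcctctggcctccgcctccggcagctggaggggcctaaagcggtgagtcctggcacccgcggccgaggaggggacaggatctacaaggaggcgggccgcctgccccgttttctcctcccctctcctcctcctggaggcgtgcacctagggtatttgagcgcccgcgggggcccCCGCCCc
In the 250 bases before the start, GC content was 62.0% for Col1a2, 35.2% for Col3a1, 59.6% for Col27a1 and 71.2% for Adamts9. GGGCGG stood in the windows of Col1a2, Col27a1 and Adamts9. TATAAA was in that of Col3a1 only, 117 bases before the start, farther away than a TATA box lies. Col1a2 also had CCAAT 109 bases before the start, in a stretch that GENCODE annotates as exon and that is not printed. No motif was common to all 4 windows. A window was found for 54 of the 80 members, 59 windows in all. GGGCGG was in 62.7% of these and in 32.7% of 32851 windows of all genes, CCAAT in 23.7% and 33.8%, TATAAA in 8.47% and 12.4%, and AGATAA in 3.39% and 9.99%. These are matches of letters, not sites shown to be bound.

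The other fibrillar chains were called in fewer lines. In Rsf1Δ the 3 further falls were in Col11a1, a minor fibril chain of cartilage, from 6.103 and 6.63 to 1.98 and 2.12 CPM, in Col5a1, from 16.5 and 19.1 to 8.03 and 8.18, and in Col2a1, the cartilage collagen, from 5.58 and 6.12 to 2.88 and 2.85. Collagen V chains start fibril assembly, and of the pair Col5a1 and Col5a2, the latter was called in WstfΔ (-1.33 on the log2 scale) and Acf1Δ (-2.22). Col5a3 in WstfΔ had 7.15 and 7.54 against 3.95 and 3.53 CPM, a log2 fold change of 0.97 that missed the fold minimum. Col11a2 was called in no line.

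Among the other collagens, Col12a1, a chain that decorates fibrils, was called lower in Rsf1Δ, WstfΔ, BptfΔ and Acf1Δ. It had 0.344 and 0.285 CPM in Rsf1Δ and 0.144 and 0.0732 in WstfΔ, against 2.47 and 2.84 in WT, and 0.4105 and 0.388 in Acf1Δ against 1.58 and 2.63. The line libraries of Col12a1 were all under WT, and it fell by 3.06 ± 0.43 (SE, adjusted p = 2.89e-06) in Rsf1Δ and by 2.39 in Acf1Δ. WstfΔ and BptfΔ had 3 counts each, at WT to line ratios of 24.3 (exact 95% interval 8.13 to 119) and 9.399 (exact 95% interval 2.92 to 48.1). In BptfΔ the call of Col12a1 was lost without WT replicate 2 (adjusted p = 0.0344) or BptfΔ replicate 2 (0.0231). Another chain that sits on fibrils, Col22a1, fell in BptfΔ (-1.65) and Acf1Δ (-1.28).

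Col8a1, a chain of the short network collagen VIII of vessels and cornea, was called lower in Rsf1Δ, WstfΔ, Tip5Δ and Acf1Δ. It had 0.172 and 0.163 CPM in Rsf1Δ and 0 and 0.0732 in WstfΔ against 1.12 and 1.77. Tip5Δ had 0.263 and 0.582 against 1.34 and 2.57, and Acf1Δ 0.112 and 0 against 0.663 and 0.926. None of these line libraries reached WT of its batch. Col8a1 fell by 3.06 ± 0.64 (SE, adjusted p = 0.000529) in Rsf1Δ and by 2.19 in Tip5Δ, and the WT to line ratio was 39.3 (exact 95% interval 6.82 to 1575) in WstfΔ (1 count) and 14.6 (exact 95% interval 4.67 to 73.5) in Acf1Δ (3 counts). Its call ended in Tip5Δ without WT replicate 2 (adjusted p = 0.104) or Tip5Δ replicate 1 (0.0843) or 2 (0.0125), in Rsf1Δ without WT replicate 2 (0.0116) or Rsf1Δ replicate 2 (0.0118), and in Acf1Δ without its replicate 2 (0.0205). The partner chain Col8a2 was called in no line.

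Col4a5 and Col4a6 lie side by side on the X chromosome and encode chains of the mature collagen IV network. Col4a5 (X from 141475370 to 141689236) was called lower in Rsf1Δ at 0.472 and 0.407 CPM and WstfΔ at 0.433 and 0.658 against 1.24 and 1.94. BptfΔ had 0.239 and 0.116 against 0.787 and 0.525, and Acf1Δ 0.597 and 0.282 against 1.99 and 2.22. In Acf1Δ Col4a5 fell by 2.26 ± 0.34 (SE, adjusted p = 6.44e-06), and it fell by 1.84 in Rsf1Δ, by 1.53 in WstfΔ and by 1.88 in BptfΔ. The call of Col4a5 was lost in BptfΔ without any 1 of the 4 libraries (adjusted p = 0.0112 to 0.106), in Rsf1Δ without WT replicate 2 (0.0154), and in WstfΔ without WT replicate 2 (0.0507) or WstfΔ replicate 1 (0.0576) or 2 (0.0114). Col4a6 had 0 counts in BptfΔ against 9 in WT, at least 2.82-fold lower. That call was absent in DESeq2, with a replicate block, in the fit on the own batch and without a filter on low counts. Col4a4 was called in no line.

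Col7a1, whose product makes the anchoring fibrils under the epidermis, was called lower in 4 lines, among them the libraries labelled Cecr2Δ. These had 1.81, 1.46 and 1.59 CPM against 4.67, 4.26 and 4.498 in WT, and there Col7a1 fell by 1.47 ± 0.18 (SE, adjusted p = 3.16e-07). In batch A WT had 6.103 and 8.96, Rsf1Δ 3.35 and 3.54 and WstfΔ 2.67 and 1.98, and BptfΔ had 2.75 and 2.66 against 5.51 and 5.43. All of these libraries were under WT, with the widest gap in WstfΔ, where the fall was 1.69. The falls of 1.12 in Rsf1Δ and 1.01 in BptfΔ lay close to the fold minimum, and went to 0.82 without WT replicate 2 of batch A and to 0.99 without BptfΔ replicate 2. In Tip5Δ and Acf1Δ the log2 fold change of Col7a1 was -0.09 and -0.01.

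**Figure D4:**
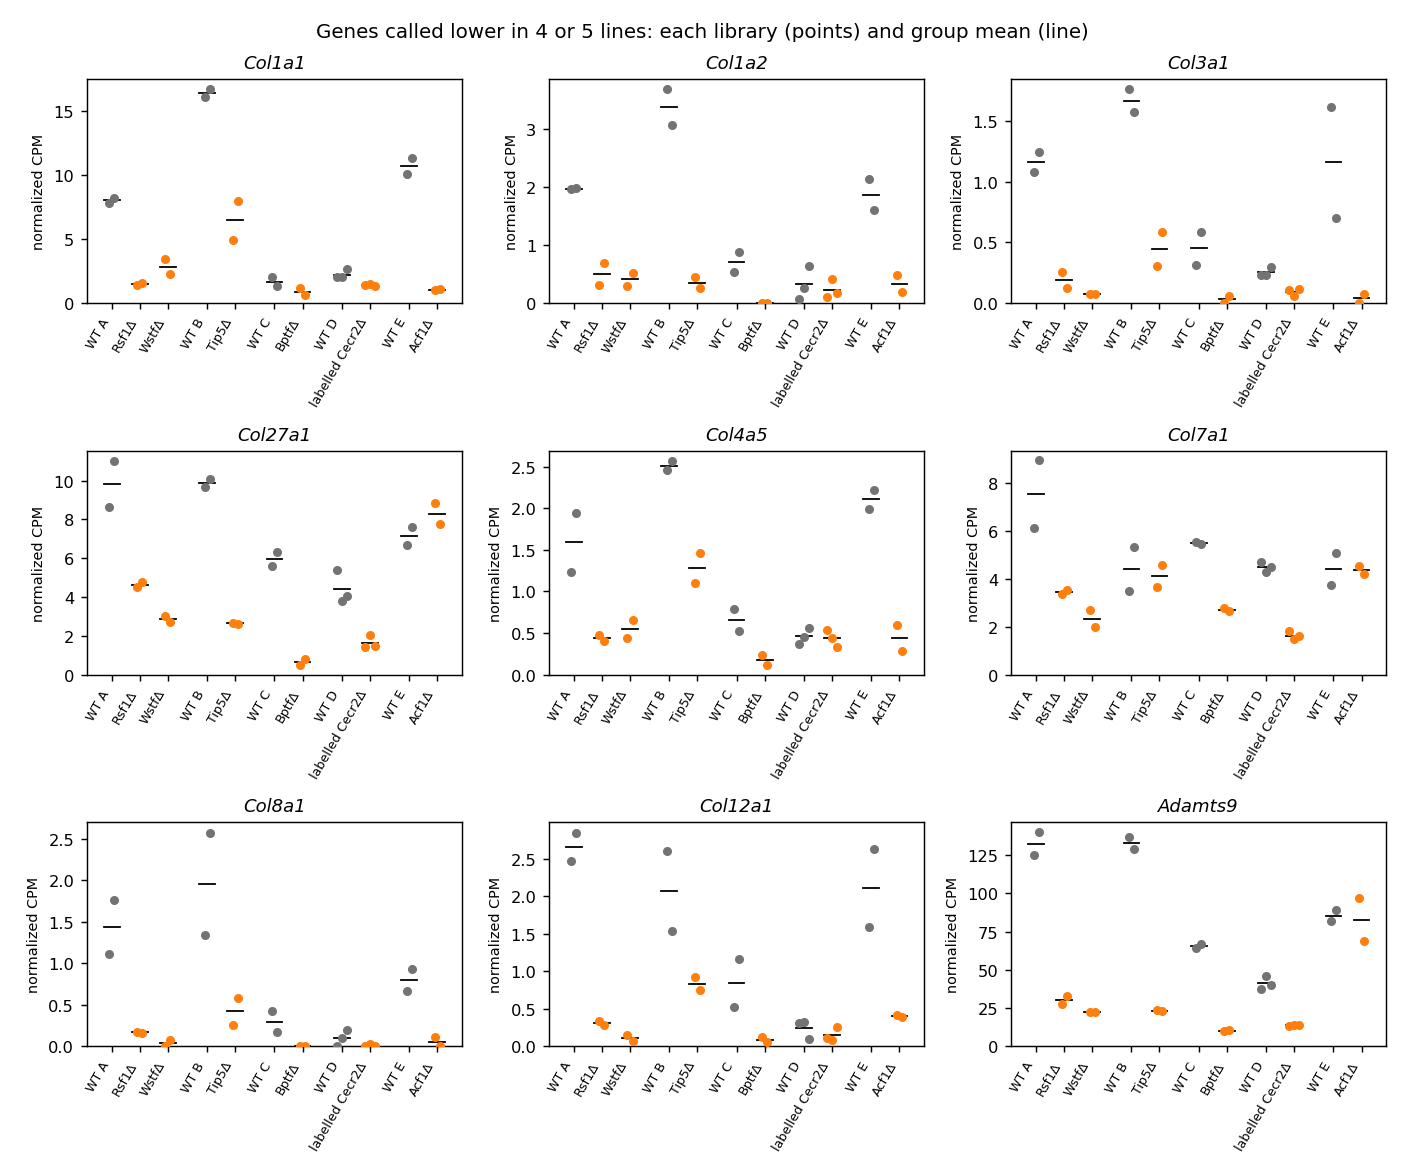
Level of the 9 genes called lower in 4 or 5 lines, in normalized CPM, in every library (points, grey for WT and orange for deletion lines, by batch; short lines are group means). Adamts9 has 129 to 137 in WT of batch B and 23.0 to 23.8 in Tip5Δ, while Col1a2, Col3a1, Col8a1 and Col12a1 run to 0 or near it in some lines.

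Collagen VI, which forms beaded filaments around cells, was called lower in BptfΔ for 4 of the 5 chains among the members, where 8.59% of all genes were called lower. Col6a3 did not reach the count minimum. Col6a4, Col6a5 and Col6a6 lie close together on chromosome 9, between 105689417 and 106096828, so their calls may not be independent. Col6a4 had 0.479 and 0.347 CPM in BptfΔ against 4.51 and 4.67 in WT and fell by 3.46 ± 0.28 (SE, adjusted p = 5.42e-11). Col6a5 had 0.599 and 0.693 against 5.35 and 5.37 and fell by 3.04, and Col6a6 had 0.359 and 0.289 against 1.26 and 1.17 and fell by 1.89. These 3 chains are the close relatives of Col6a3 that arose by duplication, and in BptfΔ their libraries were all under WT. Col6a2 had 1 count in BptfΔ against 27, a WT to line ratio of 25.4 (exact 95% interval 4.18 to 1039). The change of Col6a4 in BptfΔ was greater than in each of the other 5 lines, by 2.57 to 3.27 on the log2 scale (adjusted p = 2.05e-09 to 1.9e-06). For the other 3 chains that was not so, since the BptfΔ change of Col6a5 did not pass the test against WstfΔ (adjusted p = 0.887), that of Col6a6 against WstfΔ, Tip5Δ or Acf1Δ (0.101 to 0.14) and that of Col6a2 against Rsf1Δ (0.0954). Col6a5 also fell in WstfΔ, from 7.699 and 6.55 to 0.6502 and 0.951 CPM (-3.15), and Col6a1 in Rsf1Δ with 4 counts against 35.

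Called as well were 3 further collagens. Col17a1, the hemidesmosome collagen of epithelia, had 0.359 and 0.347 CPM in BptfΔ against 2.62 and 1.63 and fell by 2.59 on the log2 scale. Col26a1 fell by 2.17 ± 0.41 (SE, adjusted p = 0.000353) in Tip5Δ, with 0.3502 and 0.374 against 1.42 and 1.88 CPM, and had 3 counts against 53 in BptfΔ, a ratio of 16.6 (exact 95% interval 5.38 to 83.1). Without WT replicate 2 of batch B the adjusted p of Col26a1 in Tip5Δ was 0.01. Col13a1 rose in WstfΔ, from 5.74 and 6.29 to 16.4 and 15.5 CPM, by 1.41 ± 0.13 (SE, adjusted p = 1.82e-09).

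Laminins are trimers of an α, a β and a γ chain. The α chains Lama3 and Lama4, found in epithelial and vascular basement membranes, were called lower in Rsf1Δ. Lama3 went from 2.51 and 2.799 CPM in WT to 1.12 and 0.936 in Rsf1Δ and 0.722 and 1.02 in WstfΔ, and from 3.097 and 2.92 to 1.197 and 1.33 in BptfΔ. It fell by 1.37 in Rsf1Δ, by 1.60 in WstfΔ and by 1.25 in BptfΔ. Lama4 fell from 3.19 and 3.402 to 1.16 and 0.855 CPM (-1.71) and Lamb3 from 3.83 and 3.92 to 1.63 and 2.04 (-1.07) in Rsf1Δ, and neither was called in another line. All libraries of these lines were under WT. In BptfΔ Lamb3 had a log2 fold change of -0.43 and was not called. Lama5 had a log2 fold change of 0.55 ± 0.14 (SE, adjusted p = 0.00175) in BptfΔ, under the fold minimum, and Lamb2 was called in no line.

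Among integrins, the α subunits that bind collagens (Itga1, Itga10) or laminins (Itga3, Itga6, Itga7) were called in 0 of the 6 lines. With 2.72% to 13.8% of all genes called in a line, 0 of 5 is near the background. Itga7, a laminin receptor chain of muscle, came closest, with 2.03 and 2.58 CPM in WT and 1.23 and 1.097 in WstfΔ, a log2 fold change of -0.98 ± 0.28 (SE, adjusted p = 0.00524). Itga3, the receptor chain for laminins made in epithelia, was next in BptfΔ, from 167 and 164 to 83.8 and 87.5 CPM, with a log2 fold change of -0.95 ± 0.07 (SE, adjusted p = 1.48e-11). Itgb1, the common β subunit, ran between -0.70 in Rsf1Δ and -0.05 in BptfΔ, and Itga6 between -0.16 and 0.54. Itga5, the fibronectin receptor chain, ran between -0.25 and 0.58. For Itgb1, Itga3, Itga5 and Itga6 all log2 fold changes were under the fold minimum.

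Itgav, whose product pairs with several β subunits to bind RGD sequences and to release latent TGF-β, fell in Rsf1Δ from 51.3 and 57.9 to 24.01 and 21.5 CPM, by 1.26 on the log2 scale. Of its β partners, Itgb8 had 5 counts in Rsf1Δ against 57 and fell by 3.44 ± 0.68 (SE, adjusted p = 0.000326). In WstfΔ Itgb8 had 1 count, a WT to line ratio of 32.5 (exact 95% interval 5.598 to 1305), and in BptfΔ 0 against 35, at least 10.97-fold lower. The call of Itgb8 ended without replicate 2 of Rsf1Δ (adjusted p = 0.0114) or of WstfΔ (0.0107). Itgb6, the epithelial β partner, was at the edge of the count minimum, with 25 counts in WT of batch A, 1 in Rsf1Δ and 0 in WstfΔ (at least 4.75-fold lower), and in BptfΔ 0 against 11 (at least 3.45-fold lower). Its calls in these 3 lines were made neither by DESeq2 nor in fits on the own batch alone. Itgb5, another β partner of Itgav, was called in no line (-0.19 to 0.89).

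Itgb3, the β subunit of the vitronectin receptor and of platelets, was called in both directions. It had 5.43 and 4.87 CPM in WT of batch A, 5.24 and 5.25 in Rsf1Δ and 11.4 and 10.7 in WstfΔ. BptfΔ had 13.6 and 16.6 against 5.98 and 5.19, and Acf1Δ 3.55 and 3.53 against 8.29 and 7.41. So WstfΔ and BptfΔ lay above their WT libraries and Acf1Δ below. Itgb3 rose by 1.10 ± 0.13 (SE, adjusted p = 1.42e-07) in WstfΔ and by 1.43 ± 0.13 (SE, adjusted p = 4.68e-10) in BptfΔ, and fell by 1.15 ± 0.13 (SE, adjusted p = 1.41e-07) in Acf1Δ. The difference of the log2 fold changes was 2.25 ± 0.19 (SE, adjusted p = 2.66e-10) between WstfΔ and Acf1Δ and 2.58 ± 0.18 (SE, adjusted p = 8.1e-12) between BptfΔ and Acf1Δ.

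Itga8, an RGD-binding α subunit known from kidney development, rose in BptfΔ from 4.09 and 4.73 to 11.3 and 8.96 CPM, by 1.20 ± 0.19 (SE, adjusted p = 5.29e-06). In batch A it had 7.78 and 8.83 in WT, 4.04 and 4.07 in Rsf1Δ and 2.095 and 2.78 in WstfΔ, all line libraries under WT. There Itga8 fell by 1.03 in Rsf1Δ and fell by 1.77 ± 0.22 (SE, adjusted p = 1.98e-07) in WstfΔ, and without WT replicate 2 the Rsf1Δ fall was 0.94. The fold change of BptfΔ differed from both, at -2.23 ± 0.26 (SE, adjusted p = 8.53e-08) for Rsf1Δ minus BptfΔ and -2.96 ± 0.29 (SE, adjusted p = 7.6e-09) for WstfΔ minus BptfΔ. E030013I19Rik overlaps Itga8.

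The related α4 and α9 subunits, which bind fibronectin variants and cell surface ligands, were also called. Itga9 rose in BptfΔ from 24.5 and 26.1 to 65.4 and 70.9 CPM, by 1.43 ± 0.09 (SE, adjusted p = 6.91e-13). Itga4 was scarce, at 1.396 and 1.08 in WT and 2.53 and 2.49 in WstfΔ, and at 1.62 and 1.37 in WT and 0.672 and 0.706 in Acf1Δ. It was higher in WstfΔ by 1.01 ± 0.31 (SE, adjusted p = 0.00818) and lower in Acf1Δ at -1.11 ± 0.32 (SE, adjusted p = 0.00663), and the difference was 2.13 ± 0.44 (SE, adjusted p = 0.000311). Both calls of Itga4 were lost without any 1 of the 4 libraries compared (adjusted p = 0.0158 to 0.0737 in WstfΔ and 0.0119 to 0.0567 in Acf1Δ), and Cerkl overlaps the gene. Itgal, the α subunit of the leukocyte integrin LFA-1, fell in BptfΔ from 5.56 and 4.73 to 1.32 and 0.982 CPM (-2.16).

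**Figure D5:**
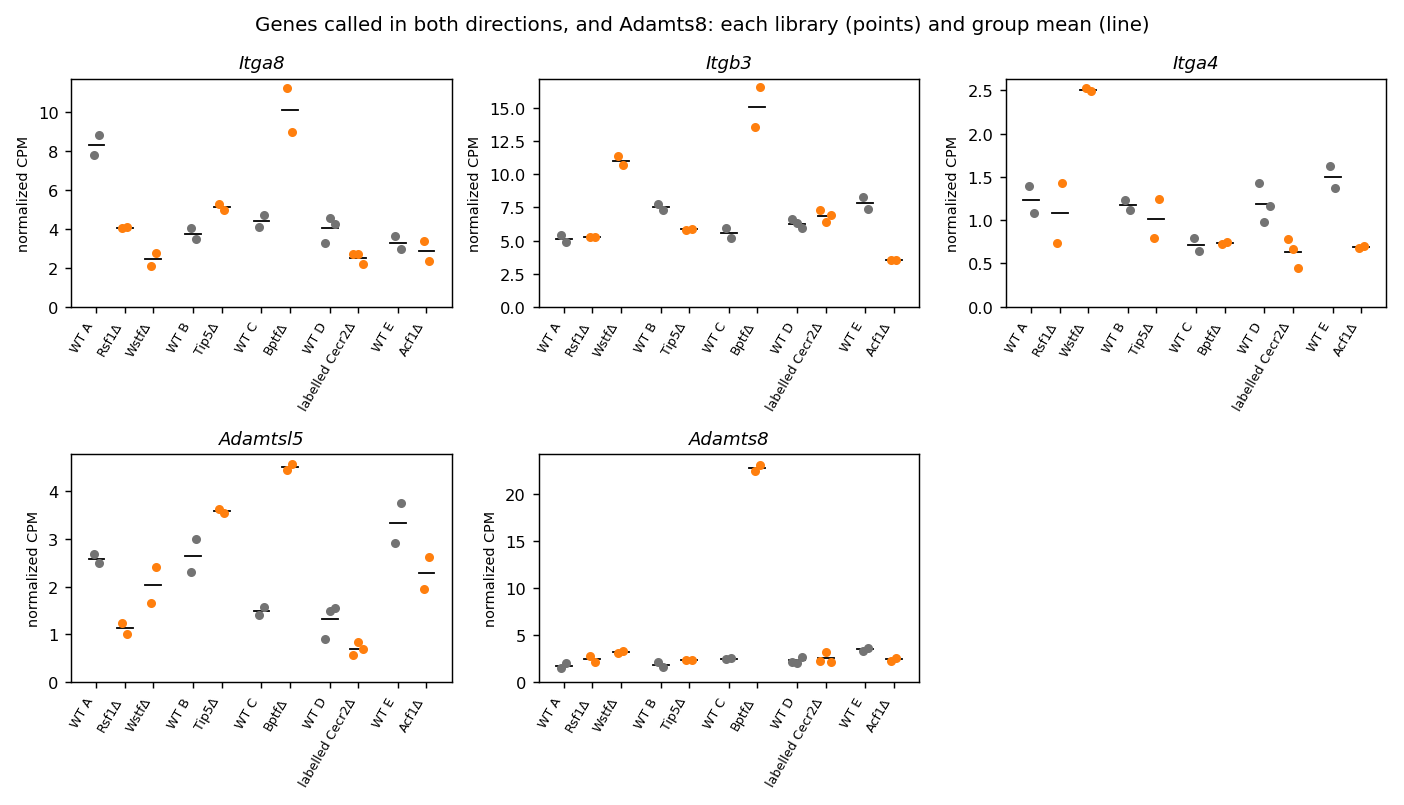
Level in normalized CPM in every library (points, grey for WT and orange for deletion lines, by batch; short lines are group means) of the 4 genes called in both directions (Itga8, Itgb3, Itga4, Adamtsl5) and of Adamts8. BptfΔ lies above WT for Adamts8 (22.5 and 23.2 CPM against 2.47 and 2.57), while Itga8 lies under WT in WstfΔ and above it in BptfΔ.

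Adamts9 (gene ID 101401, chromosome 6 from 92772699 to 92944450), a protease that cuts versican and aggrecan, had the highest level per kilobase of its family and was the only protease called in more than 2 lines. WT of batch A had 125 and 140.0 CPM, Rsf1Δ 27.9 and 32.6 and WstfΔ 22.6 and 22.5, and Tip5Δ had 23.8 and 23.05 against 137 and 129. BptfΔ had 9.88 and 10.6 against 64.5 and 67.0, and the libraries labelled Cecr2Δ 13.4, 14.2 and 14.1 against 37.7, 46.2 and 40.3. In these 5 lines all libraries lay far under WT, and those of each line were close to each other. Acf1Δ, at 96.96 and 68.8 against 81.9 and 89.1, spanned WT.

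On the log2 scale Adamts9 fell by 2.13 ± 0.11 (SE, adjusted p = 3.6e-14) in Rsf1Δ, by 2.55 in WstfΔ, 2.51 in Tip5Δ, 2.68 in BptfΔ and 1.57 in the libraries labelled Cecr2Δ. The fold change of BptfΔ differed from that of Acf1Δ by -2.64 ± 0.17 (SE, adjusted p = 1.7e-12). No call of Adamts9 or Col1a1 was lost when any 1 library was left out. Of 9 tested genes within 1 Mb of Adamts9, 0 were called lower in Rsf1Δ, WstfΔ, Tip5Δ, the libraries labelled Cecr2Δ or Acf1Δ, and 1 (Fgd5) in BptfΔ. Their median log2 fold change was -0.77 in BptfΔ and between -0.10 and 0.40 in the others. Gm52913, A730049H05Rik, Gm15737 and 9530026P05Rik overlap Adamts9, so its counts may hold reads of these.

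Adamts1, another protease of versican, fell in WstfΔ and BptfΔ. It went from 20.98 and 20.2 to 3.54 and 2.78 CPM in WstfΔ and from 18.1 and 20.02 to 1.02 and 1.39 in BptfΔ. There was no overlap, and Adamts1 fell by 2.70 ± 0.15 (SE, adjusted p = 7.9e-14) in WstfΔ and by 3.98 in BptfΔ. In Rsf1Δ, which shares the WT libraries of WstfΔ, Adamts1 had 9.92 and 11.8 CPM and was not called (-0.92). The log2 fold change of Rsf1Δ minus that of BptfΔ was 3.05 ± 0.23 (SE, adjusted p = 2.96e-11).

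Adamts8, also of the proteoglycan-cutting group, rose most of all members. BptfΔ had 22.5 and 23.2 CPM against 2.47 and 2.57 in WT of its batch, and all 11 WT libraries had 1.52 to 3.67. The log2 fold change was 3.18 ± 0.18 (SE, adjusted p = 4.63e-14), and it was 2.32 to 3.69 above that of the other 5 lines (adjusted p = 1.25e-11 to 1.58e-06). Of 7 proteases in this group, BptfΔ thus had 2 lower (Adamts1, Adamts9) and 2 higher (Adamts8 and Adamts4), where 8.59% of all genes were called lower and 5.25% higher. Adamts4, a cartilage aggrecanase, rose from 8.61 and 6.54 to 15.2 and 17.7 CPM (1.11). The other aggrecanase of cartilage, Adamts5, was called in Rsf1Δ with 3 counts against 29, a call that DESeq2 and the fit with a replicate block did not make.

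Of the 3 enzymes that trim procollagen ends, 2 were called, each in 1 line. With 2.72% to 13.8% of all genes called in a line, so few calls among 3 genes are near the background. Adamts14 rose in WstfΔ from 11.3 and 12.5 to 26.4 and 26.2 CPM, by 1.14 ± 0.13 (SE, adjusted p = 4.99e-08). Adamts3 had 0 counts in BptfΔ against 12, at least 3.76-fold lower, a call that the fit with a replicate block and the fit on the own batch did not make. Adamts2 was called in no line. Adamts7, a protease of cartilage and vessel matrix, fell from 9.095 and 8.79 to 3.65 and 4.07 in Rsf1Δ and from 7.32, 9.498 and 9.33 to 3.77, 3.24 and 3.24 in the libraries labelled Cecr2Δ (-1.21 and -1.35). Adamts10, a protease of fibrillin microfibrils, rose in BptfΔ from 10.8 and 11.7 to 30.8 and 32.1 CPM (1.49). Adamts19 had 1 count in BptfΔ against 41, a ratio of 38.5 (exact 95% interval 6.54 to 1559).

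The protease-free relatives Adamtsl4 and Adamtsl5, which sit on fibrillin fibres, also rose in BptfΔ. Adamtsl4 went from 2.205 and 2.04 to 5.03 and 4.22 CPM (1.12) and Adamtsl5 from 1.42 and 1.58 to 4.43 and 4.56, by 1.59 ± 0.26 (SE, adjusted p = 1.12e-05). Adamtsl5 was lower in Rsf1Δ, at 1.25 and 1.02 against 2.67 and 2.498, by a log2 fold change of -1.19 ± 0.27 (SE, adjusted p = 0.00113). That call was lost without WT replicate 1 (adjusted p = 0.0128) or Rsf1Δ replicate 2 (0.0262). The fold change in Rsf1Δ minus that in BptfΔ was -2.78 ± 0.37 (SE, adjusted p = 1e-06). With Adamts8, Adamts4 and Adamts10 these made 5 of the 17 Adamts and Adamtsl genes higher in BptfΔ and 4 lower, where 5.25% and 8.59% of all genes were. Acf1Δ had 0 of 17 called, which is near its share of 4.45% of all genes in either direction.

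The 5 chains left out by name were mostly lower too. Col4a1, Col4a2, Lama1, Lamb1 and Lamc1 are the collagen IV and laminin chains of the first basement membranes of the embryo. Of these, 4 were called lower in Rsf1Δ, WstfΔ, BptfΔ and the libraries labelled Cecr2Δ, 5 in Tip5Δ and 0 in Acf1Δ. Col4a1 fell by 1.98, 2.48, 2.69, 2.88 and 2.86 in Rsf1Δ, WstfΔ, Tip5Δ, BptfΔ and the libraries labelled Cecr2Δ, while Acf1Δ had a mean of 1082 CPM against 1083 in WT (adjusted p = 0.989). In Acf1Δ, where these 5 were not called, 8 collagens were: Col1a1, Col1a2, Col3a1, Col5a2, Col4a5, Col8a1, Col12a1 and Col22a1.

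Other genes that build or read the matrix were followed as a list of 88, of which 85 were tested. Called lower were 22 in Rsf1Δ, 25 in WstfΔ, 11 in Tip5Δ, 15 in BptfΔ, 12 in libraries labelled Cecr2Δ and 4 in Acf1Δ. As shares of the 85 the lower calls were 25.9%, 29.4%, 12.9%, 17.6%, 14.1% and 4.71%, against 5.26%, 6.57%, 2.63%, 8.59%, 2.33% and 3.32% of all genes tested, so Acf1Δ was near the background. Called higher were 1, 5, 0, 11, 0 and 0. Of 24 genes for making and crosslinking collagen, 9, 8, 7, 5, 5 and 2 were lower in the same order, among them Loxl2, a lysyl oxidase that crosslinks collagen, which fell by 2.33 in Tip5Δ, and P3h2, a prolyl hydroxylase of basement membrane collagen, which fell by 2.20 in the libraries labelled Cecr2Δ. Of 20 basement membrane and adhesive proteins, 5, 8, 2, 4, 4 and 2 were lower. Thbs1, one that binds integrins, fell from a mean of 45.3 to 1.17 CPM in BptfΔ (-5.26) and from 126 to 3.96 in WstfΔ (-4.98), and Npnt, a ligand of integrin α8, fell by 1.23 in Acf1Δ. Of 14 other matrix proteases and inhibitors, 4, 3, 1, 3, 1 and 0 were lower, with Timp2, an inhibitor of metalloproteases, down by 2.27 in Tip5Δ. Of 8 matrix receptors other than integrins, 2, 3, 1, 1, 1 and 0 were lower, and of 19 genes for integrin adhesion inside the cell, 2, 3, 0, 2, 1 and 0 were lower and 4 were higher in BptfΔ and 2 in WstfΔ. The lower calls of these 19 in Tip5Δ, BptfΔ, Acf1Δ and the libraries labelled Cecr2Δ (0%, 10.5%, 0% and 5.26%) were near the shares of all genes.

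Markers of other cell types moved in the same comparisons. Of 7 primitive endoderm markers (Gata6, Gata4, Sox17, Sox7, Foxa2, Dab2 and Pdgfra), 6 were called lower in Rsf1Δ, 5 in WstfΔ, 7 in Tip5Δ, 7 in BptfΔ, 6 in libraries labelled Cecr2Δ and 0 in Acf1Δ. Their summed level was 329.6 to 338 CPM in WT of batch A, 139 to 147 in Rsf1Δ and 133 to 139 in WstfΔ. Tip5Δ had 73.1 to 80.2 against 333 to 353, BptfΔ 13.9 to 14.4 against 145 to 153, the libraries labelled Cecr2Δ 29.5 to 34.1 against 101 to 117, and Acf1Δ 268.5 to 306 against 242 to 249. None of the 7 was at 0 in any group. The lines in which Adamts9, Col27a1 and most of the 5 chains left out were lower were thus those with lower primitive endoderm markers, and Acf1Δ had neither, while Col1a1, Col1a2, Col3a1 and Col12a1 were lower in Acf1Δ as well. The part of these cells in the results was not tested.

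Of 5 trophectoderm markers tested, 3 were lower in Rsf1Δ, WstfΔ, BptfΔ and the libraries labelled Cecr2Δ, 2 in Acf1Δ and 0 in Tip5Δ. The sum over all 6 markers listed (Cdx2, Gata3, Elf5, Tfap2c, Krt8 and Krt18) was 433 to 440 CPM in WT of batch A, 101 to 102 in Rsf1Δ and 72.1 to 75.3 in WstfΔ. It was 209.9 to 226 in Tip5Δ against 342 to 354, 61.5 to 67.1 in BptfΔ against 172 to 174, 76.1 to 80.8 in the libraries labelled Cecr2Δ against 112 to 133, and 159 to 161 in Acf1Δ against 245 to 254, so in all 6 lines the sum lay under WT. The keratin genes Krt8 and Krt18 made up most of this sum, with means of 182 and 193 CPM in WT of batch A. Cdx2 had a log2 fold change of 1.18 in Acf1Δ and 0.19 in Rsf1Δ, neither called. It was lower in the other lines, and called only in BptfΔ. The 8 fibroblast markers, which would mark feeder cells, summed to between 6.47 and 23.9 CPM in every library, and only 3 could be tested, with 1 called higher in WstfΔ and 1 lower in BptfΔ. Lum or Fap, or both, had 0 counts in all groups. Of 4 parietal and visceral endoderm markers tested, 3, 2, 4, 3, 2 and 0 were lower from Rsf1Δ to Acf1Δ in the order used above, with 1 higher in BptfΔ. Of 6 streak and mesoderm markers 1 or 2 were lower in each line, and 1 was higher in WstfΔ (Eomes, 1.05), in BptfΔ (Kdr, 2.67) and in the libraries labelled Cecr2Δ (Kdr, 1.03). Of 5 neuroectoderm markers 2 were lower in WstfΔ and Acf1Δ and at most 1 elsewhere, and Sox1 was higher in WstfΔ (1.87) and BptfΔ (2.26). Of 3 leukocyte markers 1 was lower, in the libraries labelled Cecr2Δ. The 6 mESC markers summed to 2527 to 2618 CPM in WT of batch A, 3464 to 3468 in Rsf1Δ and 3763 to 3809 in WstfΔ, and to 2611 to 2677 in WT of batch C and 3898 in both BptfΔ libraries. The libraries labelled Cecr2Δ (3892 to 4117 against 3436 to 3705) and Acf1Δ (3762 to 3911 against 3182 to 3390) also lay above WT, and Tip5Δ (3020 to 3119 against 3086 to 3095) overlapped it. Of these 6, Klf4 was called higher in WstfΔ, from a mean of 127 to 314 CPM, and in BptfΔ (1.14 on the log2 scale), and Esrrb in BptfΔ (1.19). The part of any of these cells in the results was not tested.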

How the data were processed

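RNA-seq libraries of WT and ISWI deletion mESCs (24 libraries, 6 lines, 5 batches) were given by the authors as deposited counts per gene, whole numbers without normalization, beside a gene width in bases. Per the labels and methods, reads were demultiplexed with bcl2fastq (2.17 per the labels, a later version for NovaSeq runs per the methods) and aligned with HISAT2 to mm10, and QuasR counted them over UCSC known genes. The labels name a stranded TruSeq kit and the methods a TruSeq RNA v2 kit, and strand and multi-mapping in the counting are not given in the sources used here, so overlapping genes, antisense genes and near-identical copies are uncertain. Symbols came from RefSeq (GRCm38.p6) for 24570 of 24594 gene IDs.

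Counts were tested with edgeR 4.0.16 (limma 3.58.1, R 4.3.3): TMM factors, filterByExpr, batch and genotype as terms, glmQLFTest over all 24 libraries, Benjamini-Hochberg adjustment over 15682 genes, with calls where the log2 fold change was beyond ±1 and adjusted p under 0.01. The SE of a log2 fold change is its size over √F. Levels are TMM-normalized CPM, per kilobase of width where genes are compared. Lines with 0 counts were set against a floor of 3 counts over the group, and those with 1 to 3 counts are given as exact 95% count ratios, all for counting error only. Library totals of 13.4 M to 36.7 M counts limit the members under 1 CPM. The scripts were tested on simulated data. No replicates were duplicates, and same-numbered libraries of different groups did not deviate together (15 pairs, r from -0.07 to 0.05), so no block was used.

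Members are all genes of the symbol rule, and the values of 1 of them are not reported here, though counts over the members include it. Full statistics went to the 6 greatest increases and decreases per line with no overlap and a mean of at least 10 counts, members called in at least 4 lines or in both directions, and the 3 highest WT levels per family. Members and gene lists were chosen with earlier results of these data known. Alternatives were DESeq2 1.42.0, the newer edgeR fit, other size factors, filters and thresholds, own-batch fits, no batch term, a replicate block, and leaving out each library.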

Additional observations from a re-analysis of the deposited data

Results flagged for a closer look

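For 4 genes called higher in one line and lower in another, the difference between the changes was itself tested in the same edgeR fit, as a contrast of both log2 fold changes with Benjamini-Hochberg adjustment. Each line was set against WT libraries of its own batch. The change of Itgb3 in WstfΔ minus that in Acf1Δ was 2.25 (adjusted p = 2.66e-10), and that in BptfΔ minus that in Acf1Δ was 2.58 (adjusted p = 8.1e-12). For Itga8 the change in Rsf1Δ minus that in BptfΔ was -2.23 (adjusted p = 8.53e-08), and in WstfΔ minus BptfΔ it was -2.96 (adjusted p = 7.6e-09). For Adamtsl5 the change in Rsf1Δ minus that in BptfΔ was -2.78 (adjusted p = 1e-06). For Itga4 the change in WstfΔ minus that in Acf1Δ was 2.13 (adjusted p = 0.000311). Both calls of Itga4 were lost without any 1 of the 4 libraries compared, with a replicate block and in DESeq2. In all 6 contrasts each line's libraries lay beyond those of its WT, and no cause was tested.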

How the results depend on the processing

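Counts of members called are given from Rsf1Δ, WstfΔ, Tip5Δ, BptfΔ, the libraries labelled Cecr2Δ to Acf1Δ, then for genes called in both directions, which as reported are 23, 20, 7, 31, 4 and 10, and 4. Without the batch term they were 0, 6, 3, 25, 10 and 1, and 0. Tested against a 2-fold change they were 3, 9, 3, 15, 1 and 2, and 0. With no fold minimum they were 32, 40, 16, 45, 19 and 26, and 13. Leaving out 1 library gave 17 to 18, 15 to 21, 5 to 6, 21 to 27, 4 to 5 and 8 to 11, and 2 to 4, the 2 being Itgb3 and Itga8 without WT replicate 1 of batch A. With a replicate block they were 22, 20, 7, 27, 4 and 9, and 3, and the block lost the calls of Adamts5 in Rsf1Δ, Itga4 in WstfΔ and Acf1Δ, and Col4a5, Col4a6, Itgb6 and Adamts3 in BptfΔ. DESeq2 gave 21, 18, 7, 28, 4 and 9, and 3, with no adjusted p for up to 8 members in a line. It did not call Itgb6 in Rsf1Δ, WstfΔ and BptfΔ, Adamts5 in Rsf1Δ, Itga4 in WstfΔ and Acf1Δ, or Col3a1, Col4a5 and Col4a6 in BptfΔ. Of 67 calls named with full statistics, over 875 alternative values, 774 stayed called in the same direction, 101 were no longer called and 0 reversed. Of the 101, 41 were without the batch term and 51 with 1 library left out. Other size factors and filters changed none of them, and fits on the own batch alone could not test 4, those of Col1a2, Col3a1, Col12a1 and Col4a5 in BptfΔ, which did not pass the filter on low counts there. Own-batch counts were 23, 20, 9, 24, 4 and 9, and 3. The calls of Itgb6 in Rsf1Δ, WstfΔ and BptfΔ, of Adamts3 and Col4a6 in BptfΔ and of Itga4 in Acf1Δ were absent too. Why a call was lost was not tested. Depth limits the 21 members under 1 CPM, whose folds rest on few counts.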
